A study of Arabidopsis thaliana with 30 samples.

Results

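The tonoplast intrinsic proteins (TIPs) were followed through germination of *Arabidopsis thaliana* in the RNA-seq time course from dry seed to seedling. The family was taken as the 10 genes that carry a TIP name, found in the gene-level table by their locus identifiers. They are called here by the names that the RefSeq annotation lists for these loci. The TIP1 genes are gamma-TIP1 (TIP1;1, AT2G36830), gamma-TIP2 (TIP1;2, AT3G26520) and gamma-TIP3 (TIP1;3, AT4G01470). The TIP2 genes are delta-TIP1 (TIP2;1, AT3G16240), delta-TIP2 (TIP2;2, AT4G17340) and delta-TIP3 (TIP2;3, AT5G47450). The TIP3 genes are alpha-TIP (TIP3;1, AT1G73190) and beta-TIP (TIP3;2, AT1G17810), and the last are TIP4;1 (AT2G25810) and TIP5;1 (AT3G47440). All 10 were among the 38217 loci counted and had reads in at least 1 library. The filter on low counts kept 23222 loci for testing and 9 of the 10 TIP genes, gamma-TIP3 being the exception.

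TIPs are aquaporins of the tonoplast, the membrane around the plant vacuole. They are channels that let water, and for some members small solutes such as ammonia, glycerol, urea or hydrogen peroxide, pass between the cytoplasm and the vacuole. Alpha-TIP and beta-TIP are known as the seed members, made while the embryo matures and found on the membrane of protein storage vacuoles. Gamma-TIP1 and delta-TIP1 are the best known members of vegetative tissue, where expanding cells are filled by a large central vacuole.

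All samples were wild type seed or seedlings of the Col-0 accession, from a single batch of plants and with 3 biological replicates at each of 10 time points. Freshly harvested seed (H) was frozen as it was collected. Dry seed (0 h) had been dried in the dark for 14 days by the sample labels. The stratified seed (S) lay on MS medium in the dark at 4 °C for 1, 12 or 48 h. The germinating seed (SL) was moved after the 48 h of stratification to continuous light at 22 °C for 1, 6, 12, 24 or 48 h, and the last of these samples is labelled as seedling. The radicle has emerged by 24 h SL in this system.

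The 30 libraries held between 8234345 (1 h S replicate 2) and 76294780 counted reads (48 h SL replicate 3), so that the 3 reads used here as the limit of detection correspond to 0.364 and 0.0393 CPM in these libraries. CPM is the number of reads of a gene per 1000000 counted reads of its library, so it is a share. A lower CPM can mean fewer cells of a type or less of the RNA per cell, and in whole seeds and seedlings these cannot be told apart. The 9 seed storage protein genes took 14.7 to 15.0% of the reads in H and 0.0447 to 0.0478% at 48 h SL, and the 5 leaf marker genes together had 9656 CPM or more in each 48 h SL library and 35.4 CPM or less in each H library. Libraries 2 and 3 of 1 h S stood apart from the other dry and stratified seed by higher levels of the 5 leaf markers and of 3 of the 5 root markers. The TIP calls at 12 h S against 1 h S are given with and without both. The TIP totals, shares and ratios at 1 h S include both.

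The promoters of the pair that leads in seed and of the pair that leads in the seedling are shown first, since these 4 genes carry most of the TIP reads. Each window is the 250 bases before the annotated gene start, read in the direction of the gene from the RefSeq TAIR10.1 assembly, in which all 10 genes have the position given in the deposited table (TAIR10). Capitals mark the core of the RY element (CATGCA, known as the binding site of the B3-domain regulators of seed maturation such as ABI3) and the ACGTG core of abscisic acid response elements, on either strand. Alpha-TIP lies on chr1:27521944-27523332 and beta-TIP on chr1:6130025-6131627, both on the plus strand and with 3 exons, and their windows are chr1:27521694-27521943 and chr1:6129775-6130024. Gamma-TIP1 lies on chr2:15445294-15446621 on the plus strand and gamma-TIP2 on chr3:9722443-9723904 on the minus strand, both with 2 exons, and their windows are chr2:15445044-15445293 and chr3:9723905-9724154.
alpha-TIP: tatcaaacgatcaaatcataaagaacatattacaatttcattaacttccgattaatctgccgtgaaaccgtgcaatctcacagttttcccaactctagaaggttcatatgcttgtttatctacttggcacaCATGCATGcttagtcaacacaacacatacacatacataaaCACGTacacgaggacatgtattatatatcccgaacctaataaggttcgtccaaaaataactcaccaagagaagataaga
beta-TIP: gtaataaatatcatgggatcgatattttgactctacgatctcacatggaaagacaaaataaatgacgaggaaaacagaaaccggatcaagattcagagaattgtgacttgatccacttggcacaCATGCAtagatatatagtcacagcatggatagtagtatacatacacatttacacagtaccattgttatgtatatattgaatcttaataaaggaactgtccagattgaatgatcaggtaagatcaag
gamma-TIP1: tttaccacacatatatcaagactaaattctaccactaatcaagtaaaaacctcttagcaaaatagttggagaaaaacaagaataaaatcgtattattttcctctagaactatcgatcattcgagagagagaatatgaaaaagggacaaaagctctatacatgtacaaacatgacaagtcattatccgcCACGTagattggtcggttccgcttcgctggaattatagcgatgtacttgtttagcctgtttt
gamma-TIP2: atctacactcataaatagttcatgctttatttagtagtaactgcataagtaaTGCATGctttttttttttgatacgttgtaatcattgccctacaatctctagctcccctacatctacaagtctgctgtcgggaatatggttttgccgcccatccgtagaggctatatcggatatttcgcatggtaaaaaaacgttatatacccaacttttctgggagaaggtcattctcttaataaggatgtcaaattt

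The alpha-TIP and beta-TIP windows share a run of 17 bases around the RY core, printed below, which starts 129 bases before alpha-TIP and 136 bases before beta-TIP. Of 27438 windows of this length in the annotation, 2 hold this run, those of alpha-TIP and beta-TIP. In the 45 pairs of TIP windows the next longest shared run is 11 bases.
shared run: acttggcacaCATGCAt

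The RY core was in 3 of the 10 TIP windows, alpha-TIP (where hits on the 2 strands overlap), beta-TIP and gamma-TIP2, and in 8.43% of all windows. The ACGTG core was in 3 of 10, alpha-TIP, gamma-TIP1 and TIP5;1, and in 22.9% of all windows. The G-box CACGTG, which contains ACGTG, was in 0 of 10 and in 6.49% of all, and the I-box GATAAG, known from promoters of light-regulated genes, was in 2 of 10 (alpha-TIP and delta-TIP3) and in 12.3% of all. These are matches of letters on both strands. The coding sequences of the closest relatives were alike at 81.6% of positions for delta-TIP2 and delta-TIP3, 81.4% for gamma-TIP1 and gamma-TIP2 and 78.3% for alpha-TIP and beta-TIP, and the longest run of identical bases shared by any pair of TIP genes in their exons was 29 bases. How reads that fit several loci were counted is not given in the sources used here.

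The family changed its members over germination. Summed per length (RPKM, the CPM divided by the exon length in kilobases), the 10 genes together had 3378 ± 23.4 in H, 3160 ± 116 at 0 h, 3236 ± 957 at 1 h S and 2985 ± 225 at 12 h S (SD, n = 3 each). The total was 1062 ± 42.5 at 48 h S, 810 ± 143 at 1 h SL, 399 ± 81.8 at 6 h SL and 95.0 ± 32.1 at 12 h SL, its lowest point, and then stood at 387 ± 68.3 at 24 h SL and 2055 ± 144 at 48 h SL. The lowest library of 12 h SL had 58.4 and the highest 118, so that none overlapped with any library of another time point.

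Alpha-TIP and beta-TIP made up almost all of this total in seed. Their share was 99.9% in H, 99.8% at 0 h, 97.7% at 1 h S, 99.9% at 12 h S, 99.6% at 48 h S, 99.5% at 1 h SL and 98.9% at 6 h SL. It was 82.1 ± 6.40% at 12 h SL, 4.40 ± 2.29% at 24 h SL and 0.423 ± 0.0541% at 48 h SL. The TIP3 genes and the other TIPs exchanged the lead between 12 and 24 h SL, after the total had dropped to 2.81% of its level in H by library size, 1.48% after scaling by trimmed mean of M values (TMM) and 1.44% in the deposited transcript table. The seedling total at 48 h SL was 60.8% of that in H by library size, but 24.8% after TMM, since the scaling factors ran from 0.631 in H to 1.64 at 48 h SL.

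**Figure D1:**
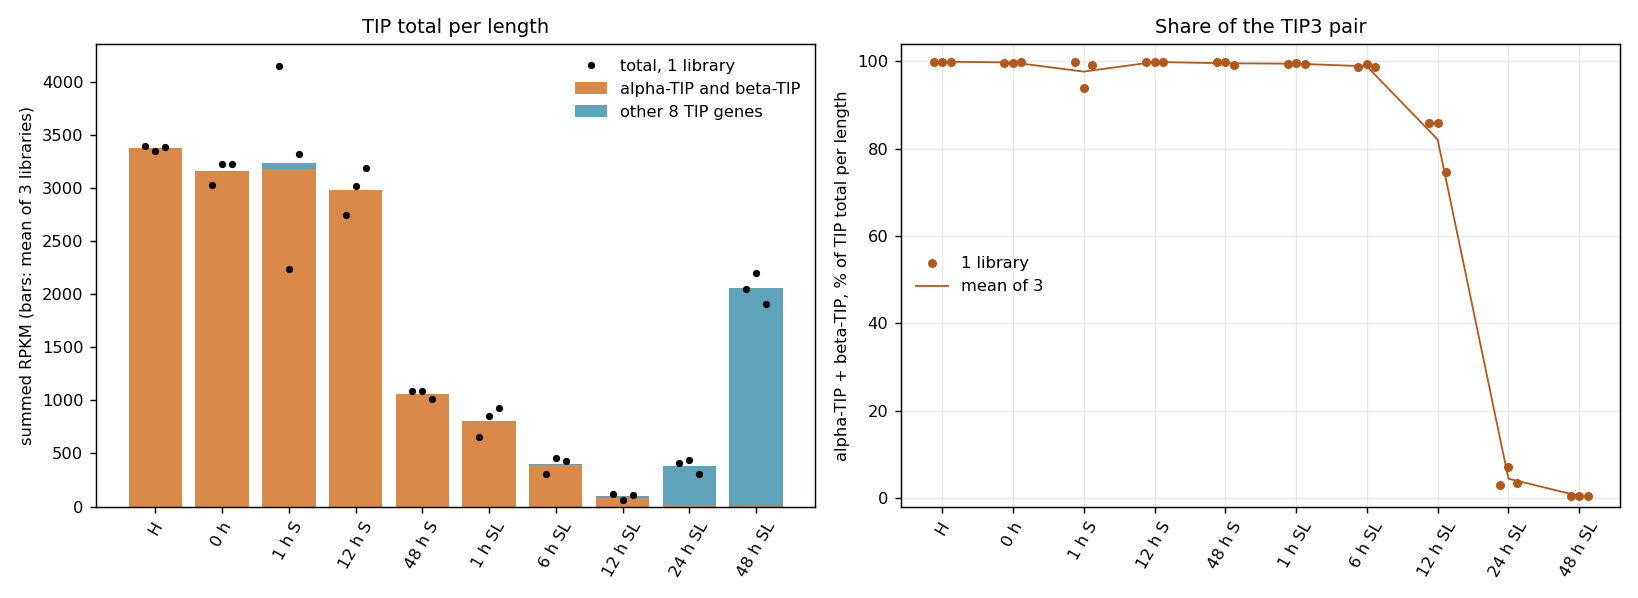
Left, RPKM summed over the 10 TIP genes at each time point, with bars for the mean of 3 libraries split into alpha-TIP and beta-TIP (orange) and the other 8 genes (blue) and points for single libraries. Right, the share of alpha-TIP and beta-TIP in the TIP total in each library, which stays above 93% up to 6 h SL and is 0.46% or less at 48 h SL.

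All 10 genes had a time effect over the 10 time points (DESeq2 likelihood ratio test, adjusted p between 1.94e-200 for alpha-TIP and 5.24e-07 for gamma-TIP3), as had 73.8% of the 32045 loci tested. Between single time points a call means an adjusted p below 0.01 in edgeR's quasi-likelihood test, with Benjamini-Hochberg adjustment over all loci tested. The SE given with a fold change is not fitted. It is the size of the log2 fold change divided by the square root of the F statistic of this test. Over the whole course, at 48 h SL against 0 h, 6 TIP genes were higher (gamma-TIP1, gamma-TIP2, delta-TIP1, delta-TIP2, delta-TIP3 and TIP4;1), against 45.8% of all loci tested, and 3 were lower (alpha-TIP, beta-TIP and TIP5;1), against 33.3%. The median fitted log2 fold change of the 9 tested members was 6.65, against 0.44 over all loci tested, and 6.55 over the 8 members with a fold when delta-TIP3 is set at its lower bound. Scaling by library size alone moved the median of all loci to 1.66, a shift of 1.22, so the fold changes below are relative to the TMM scaling.

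**Figure D2:**
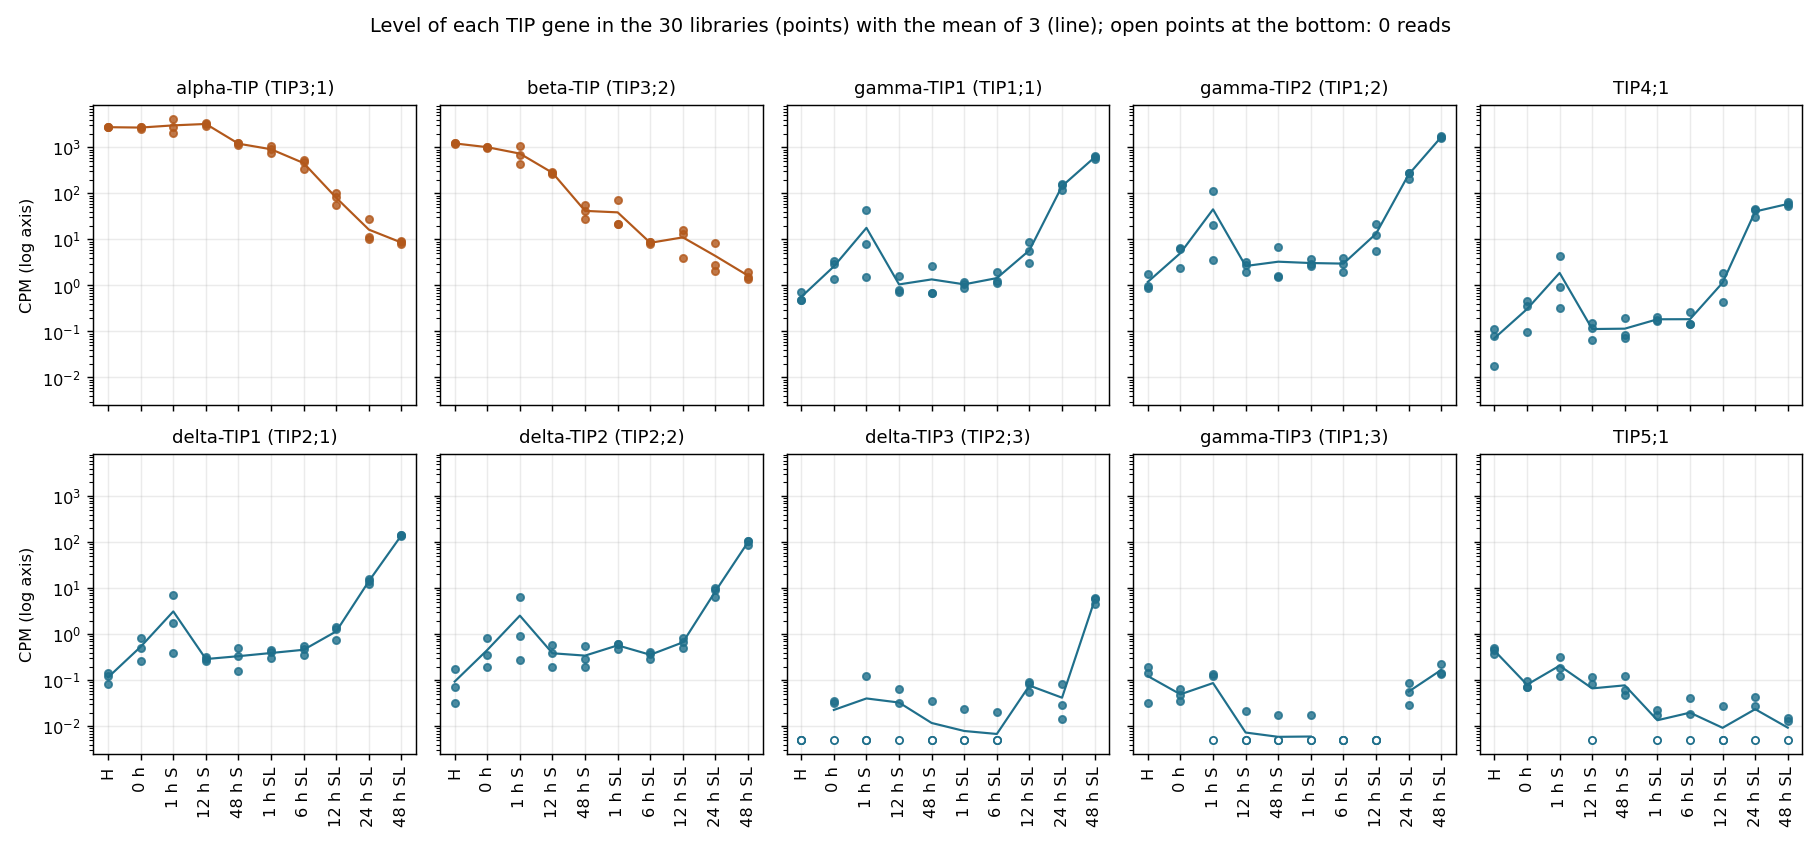
CPM of each TIP gene on a log axis in the 30 libraries (points) from H on the left to 48 h SL on the right, with the mean of 3 as a line and libraries with 0 reads as open points at the bottom. The 2 genes in orange fall after 12 h S or earlier, while gamma-TIP1, gamma-TIP2, TIP4;1, delta-TIP1 and delta-TIP2 stay low up to 6 h SL except in 2 libraries of 1 h S, and delta-TIP3 is above 4 reads at 48 h SL only.

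Alpha-TIP, a channel of protein storage vacuoles, was the most abundant TIP of seed at all times up to 12 h SL. Its levels were 2747, 2743 and 2762 CPM in H, 2565, 2755 and 2781 CPM at 0 h, 4204, 2048 and 2784 CPM at 1 h S and 2965, 3258 and 3476 CPM at 12 h S. No change was called in these first 3 steps, and the 1 h S libraries spread around the others. The level was 1223, 1235 and 1156 CPM at 48 h S, 742, 925 and 1068 CPM at 1 h SL, 348, 532 and 489 CPM at 6 h SL, 103, 55.1 and 82.2 CPM at 12 h SL, 11.1, 27.9 and 10.0 CPM at 24 h SL and 9.12, 7.94 and 8.60 CPM at 48 h SL. From 48 h S onwards the libraries of each time point lay below all libraries of the time point before it.

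Alpha-TIP was called lower in 4 of the 9 steps. The fitted log2 fold change at 48 h S against 12 h S was −1.71 (SE 0.35, edgeR adjusted p = 0.000128), and at 6 h SL against 1 h SL it was −1.12 (SE 0.35, edgeR adjusted p = 0.00928). It was −2.67 at 12 h SL against 6 h SL (SE 0.36, edgeR adjusted p = 3.41e-06) and −2.56 at 24 h SL against 12 h SL (SE 0.36, edgeR adjusted p = 1.42e-06). The call at 6 h SL is near the threshold and was lost when any 1 of the 6 libraries was left out (adjusted p 0.0123 to 0.0509) and with the replicate number as a block (edgeR adjusted p = 0.0129). The last step, 48 h SL against 24 h SL, missed the threshold with −1.03 (SE 0.35, edgeR adjusted p = 0.0153) but passed it without 24 h SL replicate 1 or 3, as did beta-TIP (−1.50, SE 0.50, edgeR adjusted p = 0.0142 with all libraries). Over the whole course the level was 8.55 ± 0.590 CPM at 48 h SL and 2700 ± 118 CPM at 0 h, a fitted log2 fold change of −9.53 (SE 0.49, edgeR adjusted p = 1.18e-15). It had 528 to 656 reads in each seedling library. Alpha-TIP overlaps AT1G73200 on the other strand, which had 30160 reads over all libraries. Without strand in the libraries the reads of the overlap cannot be told apart. The low late counts of alpha-TIP may hold reads of that gene.

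Beta-TIP, the other seed TIP, was already low at the end of stratification. Its levels were 1249, 1200 and 1222 CPM in H, 987, 1029 and 1018 CPM at 0 h, 676, 430 and 1096 CPM at 1 h S, 267, 294 and 282 CPM at 12 h S and 55.4, 41.9 and 28.0 CPM at 48 h S. All 3 libraries of 12 h S had less beta-TIP than any 1 h S library, but the step missed the threshold (−1.44, SE 0.47, edgeR adjusted p = 0.0125) and passed it without 1 h S replicate 2 (−1.84, adjusted p = 0.00229). The level was then 21.6, 73.0 and 21.7 CPM at 1 h SL, 7.99, 8.62 and 8.75 CPM at 6 h SL, 15.9, 3.95 and 13.5 CPM at 12 h SL, 2.79, 8.27 and 2.04 CPM at 24 h SL and 1.99, 1.41 and 1.49 CPM at 48 h SL. Library 2 of 1 h SL lay above the other libraries of its time point, and at 12 h SL 2 of 3 libraries lay above all those of 6 h SL.

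The fall of beta-TIP during stratification was the largest of the family. At 48 h S it had 41.8 ± 13.7 CPM, against 1011 ± 21.4 CPM at 0 h, a fitted log2 fold change of −5.09 (SE 0.54, edgeR adjusted p = 3.44e-09), while alpha-TIP had 1205 ± 42.8 CPM at 48 h S, against 2700 ± 118 CPM at 0 h, with −1.65 (SE 0.35, edgeR adjusted p = 0.000145). In light beta-TIP was lower at 6 h SL than at 1 h SL (−2.25, SE 0.49, edgeR adjusted p = 0.000409) and lower at 24 h SL than at 12 h SL (−1.63, SE 0.49, edgeR adjusted p = 0.00617). The libraries of 24 h SL and 12 h SL overlapped, and this last call was lost without 12 h SL replicate 1 or 3 or 24 h SL replicate 1 or 3 (adjusted p 0.0209 to 0.0633). Library 2 of 1 h SL, with 73.0 CPM of beta-TIP, also had the most ABI3 (151 CPM, against 57.8 and 63.3 CPM in replicates 1 and 3) and AVP1 (679 CPM, against 292 and 305 CPM). In the transcript table its excess of beta-TIP was smaller, with a signal of 126 in library 2, against 99.3 or less in replicates 1 and 3. Over the whole course beta-TIP had 1.63 ± 0.313 CPM at 48 h SL and 1011 ± 21.4 CPM at 0 h, a fitted log2 fold change of −10.50 (SE 0.69, edgeR adjusted p = 1.31e-13).

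The ratio of the 2 seed genes changed over time and came back in part. On the log2 scale (CPM + 0.5) beta-TIP against alpha-TIP stood at −1.17 ± 0.03 in H, −1.42 ± 0.04 at 0 h, −2.08 ± 0.66 at 1 h S, −3.52 ± 0.09 at 12 h S, −4.89 ± 0.45 at 48 h S, −4.77 ± 1.00 at 1 h SL and −5.65 ± 0.26 at 6 h SL. It then stood at −2.96 ± 0.59 at 12 h SL, −1.85 ± 0.18 at 24 h SL and −2.09 ± 0.13 at 48 h SL (SD, n = 3 each). Alpha-TIP had 2.25 times the CPM of beta-TIP in H, 54.0 times at 6 h SL, 3.74 times at 24 h SL and 5.24 times at 48 h SL. The ratio differed over the 10 time points (permutation F test with 100000 resamples, F = 35.9, adjusted p = 4e-05 over the 4 pairs of relatives tested, the raw p of 1e-05 being the smallest it can give). In the deposited transcript table, made with another tool, beta-TIP stood higher beside alpha-TIP, with 0.917 of its signal in H, 0.0476 at 6 h SL and 0.568 at 24 h SL, against 0.447, 0.0186 and 0.269 of its RPKM, and the course was the same. Beta-TIP overlaps 2 features on the other strand, both with 0 reads over all libraries. Without strand in the libraries the reads of the overlap cannot be told apart. The cause of the gap between the 2 measures was not tested, so the level of beta-TIP beside other genes is uncertain.

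**Figure D3:**
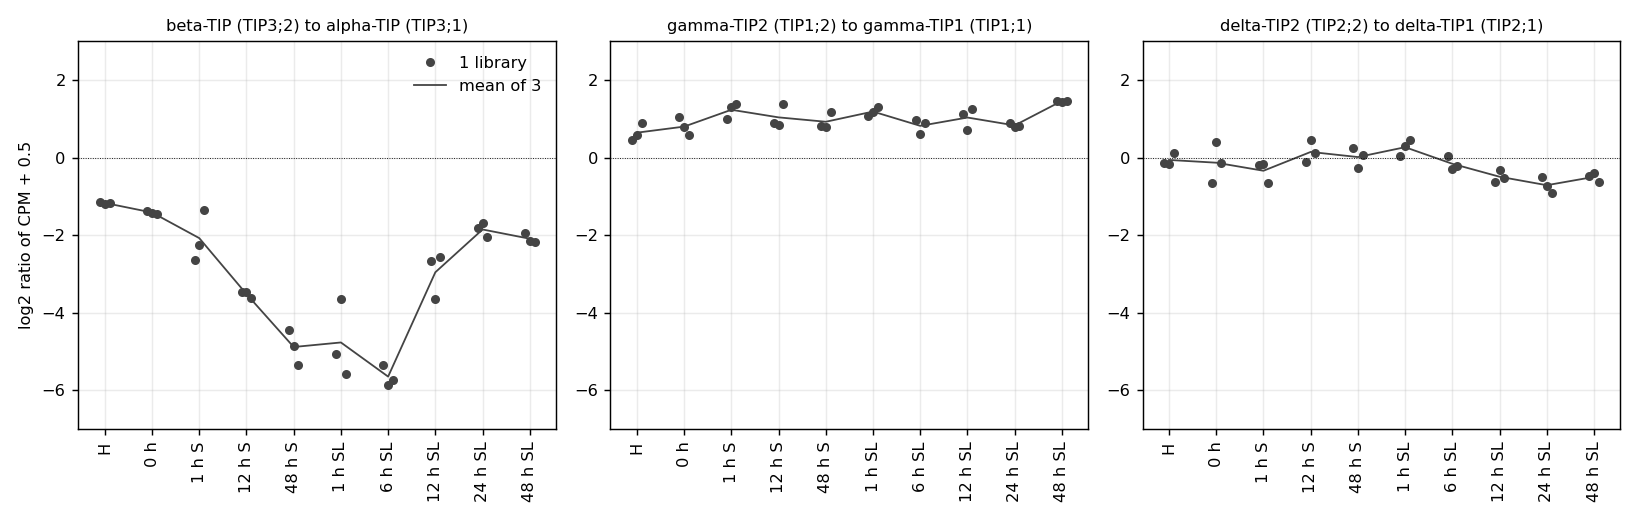
The log2 ratio of CPM + 0.5 within 3 pairs of related TIP genes in each library (points) and its mean (line) from H to 48 h SL. The ratio of beta-TIP to alpha-TIP falls to −5.65 at 6 h SL and is −1.85 at 24 h SL, while gamma-TIP2 to gamma-TIP1 and delta-TIP2 to delta-TIP1 stay between −0.91 and 1.48 in all libraries.

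The vegetative TIPs were almost absent from seed. Gamma-TIP2 was the highest of them, with 0.867, 0.974 and 1.75 CPM in H, 6.51, 6.32 and 2.34 CPM at 0 h, 3.62, 111 and 21.1 CPM at 1 h S, 1.94, 3.27 and 2.73 CPM at 12 h S and 1.56, 1.57 and 6.73 CPM at 48 h S. It had 2.86, 2.58 and 3.77 CPM at 1 h SL and 2.97, 1.96 and 4.02 CPM at 6 h SL, and only 1 h S replicates 2 and 3 lay above 7 CPM up to this point. Levels of 12.5, 5.53 and 21.9 CPM at 12 h SL, 284, 280 and 208 CPM at 24 h SL and 1677, 1804 and 1563 CPM at 48 h SL followed. It alone made up 63.4% of the TIP total per length at 48 h SL.

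Gamma-TIP1, whose protein marks the tonoplast of vegetative vacuoles, ran parallel to gamma-TIP2 at a lower level. It had 0.490, 0.487 and 0.713 CPM in H, 2.91, 3.46 and 1.40 CPM at 0 h, 1.55, 44.2 and 7.79 CPM at 1 h S, 0.813, 1.61 and 0.737 CPM at 12 h S and 0.675, 0.694 and 2.69 CPM at 48 h S. In light it had 1.09, 0.867 and 1.22 CPM at 1 h SL, 1.27, 1.12 and 1.95 CPM at 6 h SL, 5.48, 3.14 and 8.81 CPM at 12 h SL, 153, 161 and 119 CPM at 24 h SL and 605, 661 and 563 CPM at 48 h SL. The 3 libraries of 12 h SL lay above all of 6 h SL for both genes, but neither step was called (gamma-TIP1 1.79, SE 0.61, edgeR adjusted p = 0.0231, and gamma-TIP2 1.97, SE 0.65, edgeR adjusted p = 0.0194).

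Both TIP1 genes rose in the last 2 steps. At 24 h SL against 12 h SL the fitted log2 fold change was 4.41 for gamma-TIP1 (SE 0.62, edgeR adjusted p = 1.18e-06) and 4.03 for gamma-TIP2 (SE 0.68, edgeR adjusted p = 1.46e-05). At 48 h SL against 24 h SL it was 2.00 for gamma-TIP1 (SE 0.54, edgeR adjusted p = 0.00302), a call lost without 24 h SL replicate 1 or 3 or 48 h SL replicate 2 (adjusted p 0.0104 to 0.0183), and 2.63 for gamma-TIP2 (SE 0.63, edgeR adjusted p = 0.000955). Against 0 h, gamma-TIP2 at 48 h SL was 7.19 higher on the log2 scale (SE 0.78, edgeR adjusted p = 2.56e-09) and gamma-TIP1 6.69 higher (SE 0.69, edgeR adjusted p = 7.98e-10). The log2 ratio of gamma-TIP2 to gamma-TIP1 (CPM + 0.5) lay between 0.46 and 1.39 in the 27 earlier libraries and between 1.45 and 1.47 at 48 h SL. The added 0.5 shrinks this ratio where both genes are low. Without it, gamma-TIP2 had 2.90 times the mean CPM of gamma-TIP1 at 1 h SL and 2.76 times at 48 h SL. The ratio with 0.5 added differed over time (permutation F test, F = 4.38, adjusted p = 0.00392). This difference was lost in the transcript table (adjusted p = 0.0152) and without 48 h SL replicate 1 or 3 (adjusted p = 0.0103 for each).

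TIP4;1, known from roots, was called higher in 2 steps, at 12 h SL and at 24 h SL. Its levels were 0.262, 0.149 and 0.144 CPM at 6 h SL, 1.17, 0.439 and 1.83 CPM at 12 h SL, 44.6, 45.4 and 31.4 CPM at 24 h SL and 54.1, 64.0 and 59.0 CPM at 48 h SL. It was the only TIP gene called higher at 12 h SL than at 6 h SL (log2 fold change 2.26, SE 0.59, edgeR adjusted p = 0.00377), a call lost without 6 h SL replicate 2 or 3 or without 12 h SL replicate 1 or 3 (adjusted p 0.0184 to 0.0265), and it had the largest rise of the family at 24 h SL against 12 h SL (5.06, SE 0.45, edgeR adjusted p = 6.55e-10). At 24 h SL it stood at 68.5% of its level of 48 h SL, against 23.6% for gamma-TIP1, 15.3% for gamma-TIP2, 10.0% for delta-TIP1 and 8.55% for delta-TIP2, and its last step was not called (0.46, SE 0.34, edgeR adjusted p = 0.257). Differences between the members' fold changes were not tested. Per length TIP4;1 had rank 3 in the family at 24 h SL with 34.5 ± 6.70 RPKM and rank 5 at 48 h SL with 50.3 ± 4.20 RPKM (SD, n = 3).

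The TIP2 proteins pass ammonia besides water in yeast and plant assays. Most of the rise of their genes in CPM was still ahead at 24 h SL, as was that of gamma-TIP1 and gamma-TIP2. Delta-TIP1 had 0.349, 0.484 and 0.554 CPM at 6 h SL, 1.31, 0.763 and 1.41 CPM at 12 h SL, 14.6, 16.0 and 12.4 CPM at 24 h SL and 148, 142 and 138 CPM at 48 h SL. Delta-TIP2 had 0.371, 0.298 and 0.411 CPM at 6 h SL, 0.671, 0.509 and 0.831 CPM at 12 h SL, 10.2, 9.37 and 6.38 CPM at 24 h SL and 106, 109 and 89.2 CPM at 48 h SL. Delta-TIP1 overlaps features on the other strand, the largest with 9708 reads over all libraries against its 32962. Reads of the overlap cannot be told apart. Both genes rose by more than 3 log2 units in each of the last 2 steps. The rise of delta-TIP1 was 3.42 at 24 h SL against 12 h SL (SE 0.42, edgeR adjusted p = 1.36e-07) and 3.23 at 48 h SL against 24 h SL (SE 0.36, edgeR adjusted p = 2.76e-08). That of delta-TIP2 was 3.50 (SE 0.51, edgeR adjusted p = 1.91e-06) and 3.47 (SE 0.42, edgeR adjusted p = 9.36e-08) in the same steps. The log2 ratio of delta-TIP2 to delta-TIP1 (CPM + 0.5) stayed between −0.90 and 0.47, but the added 0.5 shrinks it where both genes are low. Without it, delta-TIP2 had 1.47 times the mean CPM of delta-TIP1 at 1 h SL and 0.576 times at 12 h SL. The difference of the ratio over time (permutation F test, F = 4.17, adjusted p = 0.00392) was lost with a pseudocount of 0.1 CPM (adjusted p = 0.0605) and in the transcript table (adjusted p = 0.0114). It was also lost without 1 h SL replicate 3, 24 h SL replicate 2 or 24 h SL replicate 3 (adjusted p 0.0101 to 0.0125).

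Delta-TIP3, known from roots, was a gene of the last time point. It had 399, 404 and 355 reads at 48 h SL (5.88, 6.07 and 4.65 CPM) and at most 4 reads in each of the other 27 libraries, 13 of which had 0. At 48 h SL it was at least 98-fold higher than at 24 h SL and at least 59.9-fold higher than at 0 h, both set against the mean level of 3 reads per library (edgeR adjusted p = 6.18e-12 and 7.16e-11). Delta-TIP2 had 18.3 times its CPM at 48 h SL. The log2 ratio of delta-TIP3 to delta-TIP2 differed over time (permutation F test, F = 21.8, adjusted p = 4e-05), but before 48 h SL it rests on the pseudocount, since delta-TIP3 was at the limit of detection.

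TIP5;1 and gamma-TIP3, both known from pollen, were near the limit of detection throughout. TIP5;1 had 28, 26 and 28 reads in H and 3, 2 and 3 reads at 0 h, at least 4.79-fold lower at 0 h, and was the only TIP gene called in that step (edgeR adjusted p = 0.00323). The call was lost when any 1 of the 6 libraries was left out (adjusted p 0.0113 to 0.0223). Of the 4 pollen markers VGD1 had 14.6 ± 0.967 CPM at 0 h and 57.8 ± 2.00 CPM in H and PPME1 8.78 ± 0.949 CPM at 0 h and 9.59 ± 0.277 CPM in H, while HAP2 and MGH3 were at 0.108 CPM or less in both. Their summed level was 22.0 to 25.5 CPM at 0 h and 66.0 to 69.9 CPM in H, and their part in the TIP5;1 result was not tested. TIP5;1 overlaps AT3G47450 on the other strand, which had 37145 reads against its 139 over all libraries, and without strand in the libraries their reads cannot be told apart. It was also called lower at 48 h SL than at 48 h S and at 0 h (edgeR adjusted p = 0.000863 and 0.000713), with at most 1 read in each seedling library. The first of these calls was lost without 48 h S replicate 2 (adjusted p = 0.0174), and no fold is given against 0 h, where all libraries had 3 reads or fewer.

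Gamma-TIP3 had 2, 10 and 11 reads in H, 2, 2 and 6 reads at 24 h SL and 10, 9 and 17 reads at 48 h SL. In the 21 libraries between these it had at most 4 reads, and it was not tested between single time points. Its highest mean was at 48 h SL by library size (0.168 ± 0.0474 CPM) and in H after TMM scaling.

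The order per length was read at 48 h SL as gamma-TIP2 (1303 ± 93.6 RPKM), gamma-TIP1 (493 ± 39.7), delta-TIP1 (120 ± 3.91), delta-TIP2 (74.9 ± 7.82), TIP4;1 (50.3 ± 4.20), alpha-TIP (7.25 ± 0.501), delta-TIP3 (4.74 ± 0.660), beta-TIP (1.39 ± 0.267), gamma-TIP3 (0.153 ± 0.0431) and TIP5;1 (0.00938 ± 0.00818) (SD, n = 3 each). The libraries of each gene in this order lay apart from those of the next. At 12 h SL, the time of the lowest total, alpha-TIP led with 68.1 ± 20.5 RPKM, followed by gamma-TIP2 (10.3 ± 6.35), beta-TIP (9.47 ± 5.38) and gamma-TIP1 (4.70 ± 2.30), of which gamma-TIP2, beta-TIP and gamma-TIP1 overlapped among themselves. In H the libraries of alpha-TIP (2333 ± 8.15 RPKM), beta-TIP (1043 ± 20.9 RPKM) and gamma-TIP2 (0.927 ± 0.372 RPKM) lay apart, gamma-TIP1 overlapped with TIP5;1, and gamma-TIP3, delta-TIP1, delta-TIP2 and TIP4;1 overlapped among themselves.

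Step by step the calls stayed within these groups. Before and early in stratification, 0 TIP genes were higher and 1 (TIP5;1) lower at 0 h than in H (2.56% and 6.26% of all loci tested), and 0 were called in either direction at 1 h S against 0 h (1.24% and 2.04%). At 48 h S against 12 h S, 0 were higher and 2, alpha-TIP and beta-TIP, were lower (27.0% and 24.8%), and the same 2 were lower at 48 h S against 0 h (33.2% higher and 28.5% lower over all loci). Without 48 h S replicate 3 this last count was 4, with gamma-TIP1 (−2.43) and gamma-TIP2 (−2.21) added. No TIP gene was called at 1 h SL against 48 h S (4.43% and 3.66%), where 0 of the 9 tested genes had an adjusted p below 0.01 in edgeR and 0 in DESeq2's Wald test, with 1 (TIP5;1) at an unadjusted p below 0.05. The 2 TIP3 genes were lower at 6 h SL against 1 h SL with 0 higher (17.3% and 16.8%), and alpha-TIP was lower and TIP4;1 higher at 12 h SL against 6 h SL (10.7% higher and 12.9% lower).

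The last steps held most of the rises. At 24 h SL against 12 h SL 5 TIP genes were higher, gamma-TIP1, gamma-TIP2, delta-TIP1, delta-TIP2 and TIP4;1, and 2 were lower, alpha-TIP and beta-TIP (25.9% and 22.0% of all loci). At 48 h SL against 24 h SL 5 were higher, the TIP1 and TIP2 genes tested, and 0 lower (21.9% and 19.0%). At 48 h SL against 48 h S 6 were higher and 3 lower (44.2% and 36.9%), the same genes as against 0 h. Consecutive steps share the libraries of a time point.

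**Figure D4:**
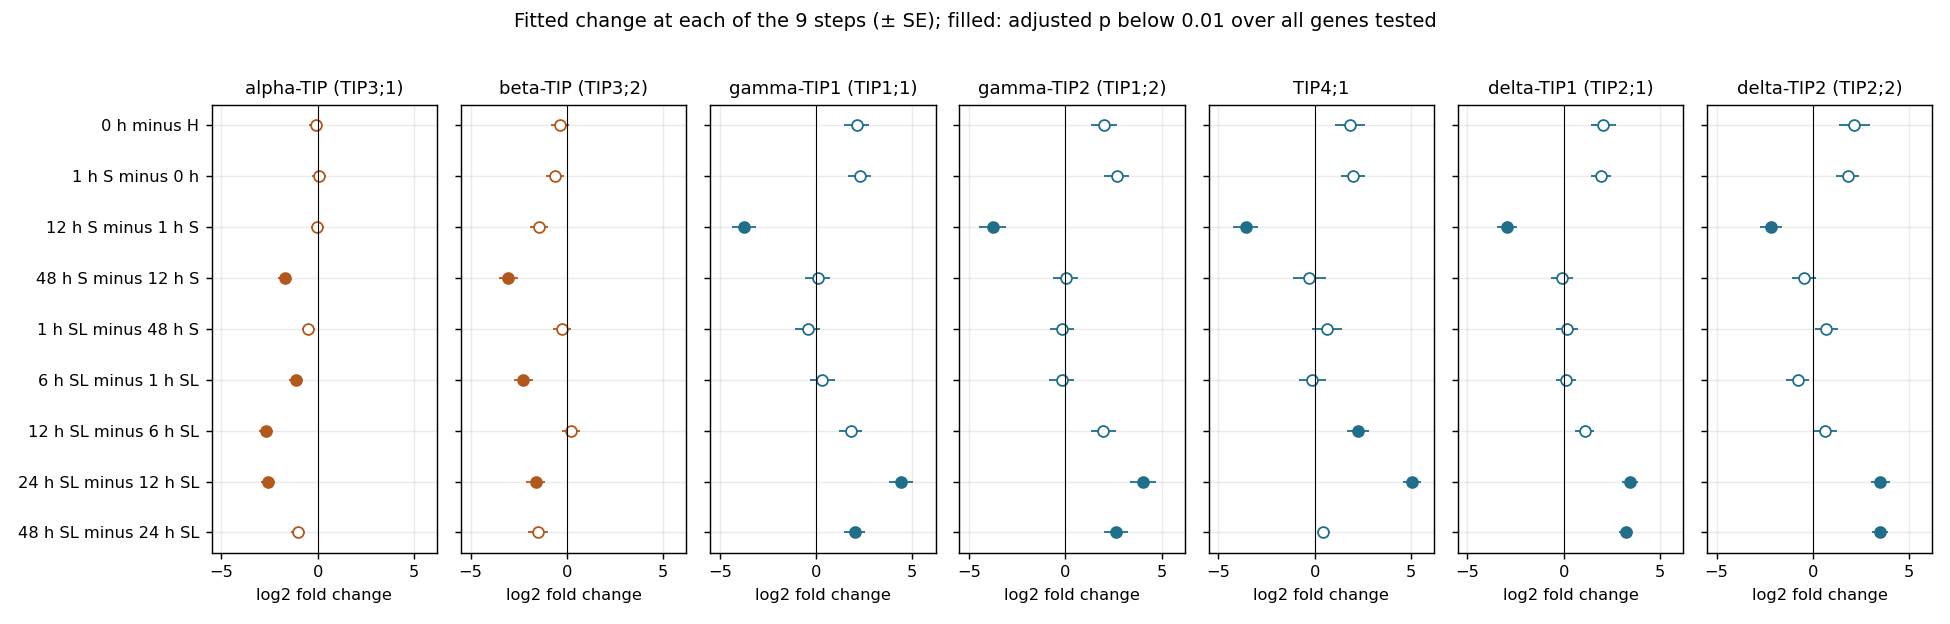
Fitted log2 fold change at each of the 9 steps for 7 TIP genes, later minus earlier time point, running down the page from 0 h minus H to 48 h SL minus 24 h SL. Bars show the SE, taken as the size of the change divided by the square root of its F statistic. Filled points have an adjusted p below 0.01 over all loci tested. The TIP3 genes lie left of 0 from 48 h S onwards except for beta-TIP at 12 h SL, and the other 5 genes lie right of 0 in the last 3 steps.

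The comparison of 12 h S with 1 h S gave 5 calls of lower level, at a 1 h S whose replicates differed widely. Gamma-TIP1, gamma-TIP2, delta-TIP1, delta-TIP2 and TIP4;1 were called lower at 12 h S than at 1 h S, with fitted log2 fold changes of −3.75, −3.77, −2.96, −2.17 and −3.57 (edgeR adjusted p 2.68e-05 to 0.00316), and 0 were higher. Of all loci tested 17.7% were lower and 18.1% higher. The delta-TIP2 call was lost without 1 h S replicate 2 (−0.78, edgeR adjusted p = 0.236) and without 12 h S replicate 1 (−1.93, edgeR adjusted p = 0.0153), and the other 4 held when any 1 of the 6 libraries was left out. Without both 1 h S replicates 2 and 3 the values were −0.99, −0.87, −0.80, 0.04 and −1.92 and 0 were called (edgeR adjusted p 0.135 to 1). This leaves 1 library at 1 h S, whose spread is assumed to be that of the other groups. In 1 h S replicate 2 these 5 genes stood at 5.11 to 7.40% of their mean at 48 h SL and in replicate 3 at 0.926 to 1.59%, against 0.215 to 0.536% in replicate 1.

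The leaf markers and 3 of the 5 root markers were also higher in 1 h S replicates 2 and 3 than in replicate 1 and than in the other dry and stratified seed. All 5 leaf markers, RBCS1A, LHCB1.3, LHCA1, PSBO1 and PSAD1 (genes of photosynthesis), stood at 6.17 to 7.59% of their 48 h SL mean in 1 h S replicate 2, at 1.65 to 2.59% in replicate 3 and at 0.268 to 0.679% in replicate 1. Of the root markers, PYK10 (a beta-glucosidase of roots), EXPA7 (a root hair expansin) and COBL9 (a root hair protein) stood at 8.18%, 5.93% and 10.7% in replicate 2, at 1.71%, 1.29% and 2.52% in replicate 3 and at 0.383%, 0.25% and 0.857% in replicate 1. SCR and SMB did not stand apart. SCR had 3.27, 10.6 and 9.99 CPM in replicates 1, 2 and 3 of 1 h S, beside 9.27 to 10.6 CPM in H and 9.56 to 10.9 CPM at 12 h S. SMB had 0.105, 0.85 and 0.328 CPM, beside 0.417 to 0.529 CPM at 12 h S and 2.21 to 3.26 CPM at 48 h S. The summed level of the leaf markers was 42.4 to 736 CPM at 1 h S and 21.6 to 30.9 CPM at 12 h S. That of the root markers was 51.5 to 1038 CPM at 1 h S and 32.2 to 49.99 CPM at 12 h S. In 1 h S replicate 2 PYK10 made up 1015 of the 1038 CPM of the root markers. The part of these markers in the 1 h S levels was not tested.

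Smaller differences between replicates were seen at 0 h and 48 h S. At 0 h the 5 vegetative TIP genes had medians of 0.477, 0.568 and 0.186% of their 48 h SL mean in replicates 1, 2 and 3, beside leaf marker medians of 0.843, 0.721 and 0.393%. In 48 h S replicate 3, which had the highest gamma-TIP1 and gamma-TIP2 of its time point, the TIP median was 0.40% and the leaf marker median 0.570%. None of the 5 genes was called at 0 h against H (gamma-TIP1 2.10, SE 0.66, edgeR adjusted p = 0.0244) or at 1 h S against 0 h (gamma-TIP2 2.67, SE 0.66, edgeR adjusted p = 0.0105), but DESeq2's Wald test called 3 and 5 TIP genes higher in these steps. Without 1 h S replicate 1 edgeR called 5 higher at 1 h S against 0 h, and without replicate 3 it called 2.

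**Figure D5:**
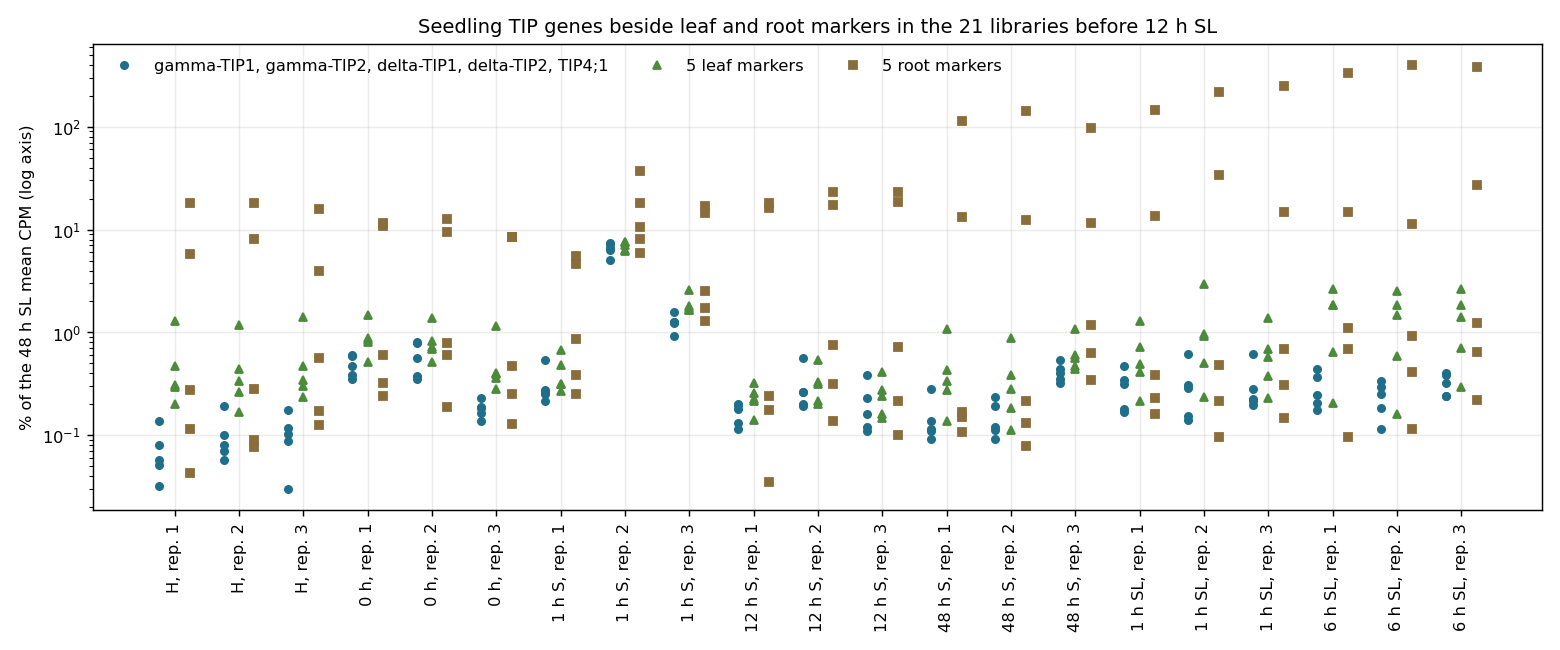
CPM as a percentage of the gene's own mean at 48 h SL, on a log axis, in the 21 libraries from H to 6 h SL for 5 vegetative TIP genes (circles), 5 leaf markers (triangles) and 5 root markers (squares). In 1 h S replicates 2 and 3 the TIP genes lie above those of all other libraries shown. So do the leaf markers of replicate 2, while those of replicate 3 overlap with leaf markers of 1 h SL and 6 h SL. The leaf marker median was 1.83% in 6 h SL replicate 1 and 1.72% in 1 h S replicate 3.

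The genes whose levels ran most like a TIP gene over the 30 libraries were of 2 kinds. Among 11092 annotated genes with a mean of at least 10 CPM, those with the highest Pearson correlation of log2(CPM + 1) with alpha-TIP were GASA3 (r = 0.994, 549 CPM in H), SMP1 (r = 0.993, 355 CPM in H) and the cruciferin gene AT1G03880 (r = 0.993), and beta-TIP came at rank 504. For gamma-TIP1 they were AT2G10940 (r = 0.998), LTL1 (r = 0.998), a GDSL lipase gene, and gamma-TIP2 (AT3G26520, r = 0.997). TIP4;1 stood at rank 64, delta-TIP1 at rank 96 and delta-TIP2 at rank 165 for likeness to gamma-TIP1. These are descriptions over libraries that share the time course.

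The other genes of water transport and of the vacuole were counted beside the TIPs at 48 h SL against 0 h. Of the 25 other aquaporin genes, which include the plasma membrane PIPs, 22 were tested, 19 were higher and 2 lower, beside 45.8% higher and 33.3% lower of all loci tested. Their median log2 fold change was 4.02, against 0.44 over all loci. PIP2;4 had 18.5 ± 1.03 CPM at 48 h SL and was at least 200.3-fold higher than at 0 h, PIP2;6 had 42.8 ± 4.83 CPM at 48 h SL and 0.271 ± 0.132 CPM at 0 h, and NIP1;1 had 97.6 ± 0.680 CPM at 48 h SL and 0.70 ± 0.388 CPM at 0 h. At 48 h S against 0 h, 10 of the 22 were higher and 5 lower, beside 33.2% higher and 28.5% lower of all loci.

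Most genes for proton pumps of the tonoplast were higher as well. Of 26 genes for V-ATPase subunits and vacuolar pyrophosphatases 25 were tested, 17 were higher and 2 lower, with a median of 1.07, against 45.8% higher, 33.3% lower and a median of 0.44 over all loci. VHA-E3 had 66.5 ± 2.73 CPM at 48 h SL and 0.303 ± 0.0954 CPM at 0 h, VHA-B3 had 377 ± 11.7 CPM at 48 h SL and 10.4 ± 1.18 CPM at 0 h, and VHA-G3, known from pollen, was at least 14.3-fold lower at 48 h SL. AVP1, the main vacuolar pyrophosphatase, had 1112 ± 263 CPM at 12 h SL, 1789 ± 397 CPM at 24 h SL and 1486 ± 37.7 CPM at 48 h SL, so it stood near its seedling level at the time of the lowest TIP total.

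The seed storage protein genes also fell. All 9 storage protein genes were lower at 48 h SL than at 0 h, as were 33.3% of all loci, with a median log2 fold change of −9.19, led by SESA3 (−9.93, SE 0.61), SESA1 (−9.74, SE 0.43) and the cruciferin gene CRB (−9.33, SE 0.48). Of the 10 regulators of seed maturation 6 were lower and 2 higher (33.3% and 45.8% of all loci). Their median was −2.49, led by ABI5 (−6.66, SE 0.19), EEL (−4.93, SE 0.26) and BZIP67 (−3.90, SE 0.40). The 10 did not run alike, and they include the repressors VAL1 and VAL2. ABI4 had 2.28 ± 0.813 CPM at 0 h, 69.7 ± 11.5 CPM at 12 h SL and 9.67 ± 2.38 CPM at 48 h SL. ABI3 had 77.1 ± 22.0 CPM at 24 h SL and 11.2 ± 4.67 CPM at 48 h SL, whereas alpha-TIP had 16.3 ± 10.0 CPM at 24 h SL and 8.55 ± 0.590 CPM at 48 h SL (SD, n = 3 each).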

How the data were processed

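RNA from 30 samples, 10 time points with 3 biological replicates each, was sequenced in unstranded libraries. Per the labels they were polyA-selected, but the kit named there is one for total RNA, so what a CPM is a share of is not certain. The authors deposited whole-number counts per gene with gene lengths (TAIR10), and the submitters' processing notes name Trim Galore 0.4.2, HISAT2 2.0.5, featureCounts 1.5.1 and DESeq2 1.10.1, without giving the treatment of reads with several hits. A deposited transcript table (Salmon 0.7.2, sleuth 0.28.1) gives a signal that behaves as TPM divided by a size factor per library, and lists 1 transcript each for 7 TIP genes. Deposited tables of the authors' own tests (log2 values and p-values of genes called) were not used. CPM and RPKM were computed from the counts of the whole library. Counts were fitted in edgeR 4.0.16 (TMM, filterByExpr, quasi-likelihood test, 30 libraries in 1 fit) for 12 comparisons, and in DESeq2 1.42.0 (likelihood ratio test) for the time effect, with limma 3.58.1 on the transcript signal as an alternative. Adjusted p below 0.01 was called, and all fits were tested on simulated data. The 4 ratios were tested by permutation. Replicates share no documented batch, and each was counted as a sample because the study gives them as biological replicates. The lowest chi-square per degree of freedom between replicates was 2.70. This is spread beyond counting error, and it cannot show that the replicates are independent. The named genes were all 10 TIPs, the 3 genes of each list with the largest change at 48 h SL against 0 h, ABI3, AVP1, the markers, and the 3 genes most like alpha-TIP and gamma-TIP1. ABI4, VAL1 and VAL2 were named besides, to show the range of the list of regulators. The members, lists and tests were chosen with earlier results of these data known. The limits of detection cover counting error only. Each ± is the SD of 3 libraries, and each SE was derived from the quasi-likelihood F statistic, which takes in the spread between libraries.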

Additional observations from a re-analysis of the deposited data

How the results depend on the processing

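Of the 44 calls of a TIP gene in a comparison, 33 held under every alternative that gave a value. The replicate numbers are not known to pair the samples: 41 of 135 pairs of same-numbered libraries had deviations that correlated above 0.1. The median correlation was 0.0138 for pairs with the same number and −0.000527 for pairs with other numbers. With the replicate block the TIP genes lower at 6 h SL against 1 h SL were 1 in place of 2, alpha-TIP being lost (adjusted p = 0.0129), and the block changed no other call. TIP genes higher at 0 h against H numbered 3 with DESeq2's Wald test and 3 in the fit of the 6 libraries alone, and those lower 0 (DESeq2), 2 (6 libraries alone) and 0 in the transcript table with either pseudocount, but the 1 gene called, TIP5;1, had no adjusted p in DESeq2 and is not in that table, so no call was lost there. At 1 h S against 0 h 3 were higher without the low-count filter and 5 with DESeq2. At 12 h S against 1 h S, 0 were lower in the 6 libraries alone, and 0 without 1 h S replicates 2 and 3, which leaves 1 library there and was chosen after seeing the data, where delta-TIP2 changed sign (log2 fold change 0.0393). At 12 h SL against 6 h SL 2 (no filter), 3 (DESeq2), 3 (6 libraries alone) and 0 (signal, pseudocount 1) were higher. At 24 h SL against 12 h SL 1 was lower by library size alone, without the 2 shallowest libraries and in the 6 libraries alone. At 48 h SL against 24 h SL 2 (no filter) and 1 (DESeq2) were lower. Leaving out 1 library gave 0 lower at 0 h against H, 0 to 5 higher at 1 h S against 0 h, 1 lower at 6 h SL against 1 h SL, 0 to 2 higher at 12 h SL against 6 h SL, 1 to 2 lower at 24 h SL against 12 h SL, 0 to 2 lower at 48 h SL against 24 h SL and 2 to 4 lower at 48 h S against 0 h. The F of gamma-TIP2 to gamma-TIP1 was 3.23 in the transcript table and 3.57 to 5.416 without 1 library, and that of delta-TIP2 to delta-TIP1 was 2.32 with a pseudocount of 0.1, 3.67 in the transcript table and 3.39 to 6.018 without 1 library. The highest time point of alpha-TIP was 12 h S by library size, H after TMM and 1 h S in the transcript table. The causes were not tested.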
